A study of Homo sapiens with 8 samples.

Results

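The genes described here belong to developmental and lineage transcription factor families, which were measured in 4 human multiple myeloma cell lines. They were chosen by symbol alone, from the families HOX, FOX, SOX, PAX, KLF, IKZF, GATA, TBX, LHX, POU, RUNX, ETV and ID. Of the 14812 genes with a single platform symbol on the array, 167 matched, in 12 of the 13 families. No row carried the symbol of an ID gene, so that family was not analysed here, and KLF9 and FOXM1 were left out by the rule. There were 39 FOX, 27 HOX, 19 SOX, 16 KLF, 16 POU, 14 TBX, 8 PAX, 8 LHX, 7 ETV, 6 GATA, 4 IKZF and 3 RUNX genes. The symbol pattern also took in 4 non-coding genes, the antisense genes TBX5-AS1 and POU2F3-AS1 and the pseudogenes POU5F1P3 and POU5F1P4.

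The lines KMS11, KMS18, KMS34 and OPM2 are myeloma lines with the t(4;14) translocation, per the labels, which joins the immunoglobulin heavy chain locus to the region of the histone methyltransferase gene NSD2 (MMSET). From each line 1 culture received an shRNA against MMSET I, an isoform of that gene (ShMI), and 1 a control, which gave 4 ShMI and 4 control arrays. Cells of both kinds were transduced by lentivirus with polybrene at 8 µg/mL, got fresh medium after 24 h and were lysed for RNA 48 h later. What the control virus carried, and the shRNA sequences, are not given in the sources used here. Each line stands for 1 tumour in culture, and no line had a second culture of either kind. The arrays were Affymetrix Human Gene 2.0 ST arrays, and values are the deposited linear intensities.

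Of the 10 plasma cell markers fixed for this work 7 had a row, and these 7 lay within the tested range. The summed intensity of the 7 measured markers was 7822 to 11262 on ShMI arrays and 8122 to 10872 on control arrays. Among them the lineage factor gene IRF4 ranged from 2254 to 4673 and the syndecan gene SDC1, the surface antigen CD138, from 844 to 1112. The 5 measured myeloid markers, of which 3 were bright enough to test, summed to 281 to 318 on ShMI arrays and 314 to 326 on control arrays, with CD68 at 88.2 to 119, CSF1R at 66.8 to 86.6, MPO at 48.6 to 62.6, CD14 at 32.3 to 39.2 and LYZ at 28.2 to 34.7. The 6 measured markers of mature B cells summed to 482 to 577 on ShMI arrays and 424 to 540.5 on control arrays. Of these, BLNK ranged from 110.2 to 358, CR2 from 35.8 to 229, BLK from 57.5 to 69.8, CD22 from 44.1 to 56.0, EBF1 from 40.5 to 46.7 and CD24 from 21.97 to 24.26. The 6 measured markers of T and NK cells summed to 480 to 934 on ShMI arrays and 542 to 954 on control arrays. The row of NSD2, which does not separate isoforms, had a log2 difference of -0.18 between ShMI and control arrays and was lower in 4 of 4 lines, but did not pass the test over all genes (limma, adjusted p = 0.472). In these bulk extracts a difference in RNA per cell and one in the share of cells with that RNA cannot be told apart.

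Transcription factors of these families bind DNA through a shared domain, such as the homeodomain of HOX, LHX and POU proteins, the forkhead of FOX proteins, the HMG box of SOX proteins or the zinc fingers of KLF, IKZF and GATA proteins. Many set the fate of a tissue in the embryo and are then kept silent in unrelated tissues. In the B lineage, PAX5, IKZF1, IKZF3, POU2F2, FOXO1 and RUNX1 act in B cell development, and PAX5 is turned off as B cells become plasma cells. HOX genes lie in 4 clusters and pattern the body axis, while KLF2, RUNX3 and GATA3 are best known from lymphocytes.

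Promoters are shown for 5 genes with a single RefSeq start, taken from the 20 tested genes whose line means spanned at least 2-fold. Each is the window from 250 bases before to 50 bases after the start on GRCh38.p14, written 5′ to 3′ on the strand of the gene. Capitals mark GGGCGG or its reverse complement, the GC box that KLF and SP factors bind, with overlapping matches joined.
SOX2 (chr3:181711675-181711974, plus strand): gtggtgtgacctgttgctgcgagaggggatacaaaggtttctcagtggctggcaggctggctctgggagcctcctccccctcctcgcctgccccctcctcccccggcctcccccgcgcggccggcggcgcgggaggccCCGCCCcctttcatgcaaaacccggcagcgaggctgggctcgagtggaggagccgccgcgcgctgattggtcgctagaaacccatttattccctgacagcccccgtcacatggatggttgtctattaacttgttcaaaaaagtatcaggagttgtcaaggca
KLF2 (chr19:16324576-16324875, plus strand): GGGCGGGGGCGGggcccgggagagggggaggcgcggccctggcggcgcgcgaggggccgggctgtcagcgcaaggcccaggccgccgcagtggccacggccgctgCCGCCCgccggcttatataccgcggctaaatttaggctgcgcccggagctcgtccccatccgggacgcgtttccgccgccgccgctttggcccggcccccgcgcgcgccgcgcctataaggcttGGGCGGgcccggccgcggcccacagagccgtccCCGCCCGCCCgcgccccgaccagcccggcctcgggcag
FOXA1 (chr14:37595200-37595499, minus strand): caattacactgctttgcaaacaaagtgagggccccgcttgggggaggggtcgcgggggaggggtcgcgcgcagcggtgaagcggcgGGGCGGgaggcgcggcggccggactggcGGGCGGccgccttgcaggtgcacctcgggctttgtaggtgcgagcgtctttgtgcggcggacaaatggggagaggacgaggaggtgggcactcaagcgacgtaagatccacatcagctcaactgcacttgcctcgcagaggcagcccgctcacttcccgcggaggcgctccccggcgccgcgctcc
SOX4 (chr6:21593501-21593800, plus strand): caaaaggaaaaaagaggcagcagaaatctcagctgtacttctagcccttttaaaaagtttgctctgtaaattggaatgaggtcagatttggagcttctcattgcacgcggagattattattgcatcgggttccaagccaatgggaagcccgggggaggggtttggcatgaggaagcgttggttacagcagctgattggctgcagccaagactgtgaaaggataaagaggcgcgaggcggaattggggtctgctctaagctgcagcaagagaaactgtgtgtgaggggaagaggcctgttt
POU4F1 (chr13:78603503-78603802, minus strand): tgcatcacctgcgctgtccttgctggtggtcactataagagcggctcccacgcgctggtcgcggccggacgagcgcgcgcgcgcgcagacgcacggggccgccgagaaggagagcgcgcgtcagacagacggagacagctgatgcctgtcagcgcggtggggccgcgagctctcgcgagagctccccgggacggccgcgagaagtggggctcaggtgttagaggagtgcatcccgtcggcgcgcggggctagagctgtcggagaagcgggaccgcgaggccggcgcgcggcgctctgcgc

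The windows of KLF2, FOXA1 and SOX2 held 6, 2 and 1 matches, and those of SOX4 and POU4F1 held 0. Their GC content was 80.7% for KLF2, 72.3% for POU4F1, 69.3% for FOXA1, 63.3% for SOX2 and 49.3% for SOX4. A window was matched for 115 of the 167 genes, and 86 had exactly 1. Among those 86 windows the median GC content was 66.7% and 66.3% held a GC box, against 63.3% and 60.8% among the 8073 single windows of all named genes on the array. The forkhead motif TGTTTAC, searched on both strands, was in 4.65% of the 86 windows and 2.58% of the 8073. The ETS motif CCGGAAG, which shares no run of letters with the others beyond 3 bases, was in 4.65% and 15.9%. In the 5 windows shown neither of these motifs was found.

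Most of these rows were of low to middling brightness. The brightness of a row depends on its probes as well as on the RNA, so it shows how well a gene could be measured and was not read as a level between genes. Of the 167 genes, 142 lay above the 25th percentile of all named genes (an intensity of 46.7) and were tested, 75 lay above the median of 85.4 and 23 above the 75th percentile. All 16 KLF, 7 ETV, 6 GATA and 3 RUNX genes were tested, with 36 of 39 FOX, 20 of 27 HOX, 15 of 19 SOX, 13 of 16 POU, 11 of 14 TBX, 6 of 8 LHX, 6 of 8 PAX and 3 of 4 IKZF genes. The brightest rows of their families were KLF2, FOXN2, SOX4, ETV6, IKZF1, LHX3, RUNX3, POU5F1P3, HOXD4, GATA1, TBX2 and PAX2.

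The 25 genes that were not tested had geometric mean intensities between 28.3 and 44.4. They were 7 HOX, 4 SOX, 3 FOX, 3 TBX, 3 POU, 2 PAX, 2 LHX and 1 IKZF gene, the last being IKZF2. Line means of 24 of these 25 differed by at most 1.31-fold. The exception, TBX18, was chosen for mention after its values were seen. It had 69.7 and 67.3 on the ShMI and control arrays of KMS18, against 39.8 and 36.8 in KMS34, 37.0 and 39.4 in KMS11 and 34.7 and 32.9 in OPM2.

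**Figure D1:**
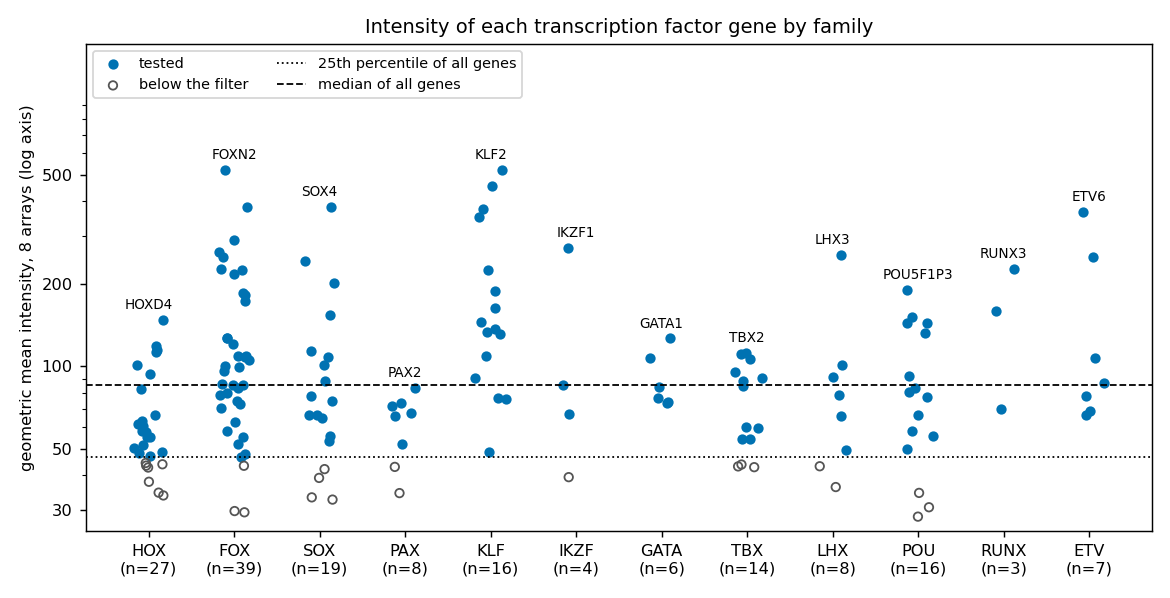
Geometric mean intensity over the 8 arrays of each gene, by family, on a log axis. Filled points are the 142 tested genes, open points the 25 below the 25th percentile of all named genes (dotted line), and the dashed line is the median of all named genes. HOX and PAX rows lie mostly below the median, and the brightest rows are KLF2 and FOXN2.

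The first comparison asked how the lines differ in these factors. Both arrays of a line entered the fit, with the knockdown as a second term, and limma's moderated F test was run on all 11109 genes that passed the brightness filter. Of the 142 tested factor genes, 97 passed at an adjusted p under 0.05, which is 68.3%, against 75.7% of all tested genes. In 20 of the 142 (14.1%) the line means spanned at least 2-fold and the F test passed, against 18.8% of all tested genes. The median gene of the factor families had line means 0.413 log2 units apart, beside 0.516 for all tested genes. These shares were thus near or below those of all tested genes. By pairs of lines, with the share of all tested genes after each count, 72 of the 142 differed between KMS11 and KMS18 (56.5%), 42 between KMS11 and KMS34 (42.2%) and 75 between KMS11 and OPM2 (54.7%). There were 60 between KMS18 and KMS34 (47.5%), 37 between KMS18 and OPM2 (38.9%) and 64 between KMS34 and OPM2 (49.9%). The residual of these tests is the spread of the knockdown differences over the lines, so that a line is represented by 1 pair of cultures. Where lines are said below not to differ beyond their spread, this residual is meant, not a spread between cultures of a line.

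The share of all tested genes with such a range moved with brightness, from 7.53% between the 25th and 50th percentile to 20.5% between the 50th and 75th and 28.5% above it, and families differed in brightness, so counts by family are given as a description. The 20 genes with a range of at least 2-fold comprised 5 of 16 tested KLF genes (KLF2, KLF10, KLF11, KLF12 and KLF15), 3 of 7 ETV genes (ETV1, ETV3 and ETV4), 3 of 13 POU genes (POU2F2, POU3F2 and POU4F1) and 3 of 36 FOX genes (FOXA1, FOXD1 and FOXP2). They also included IKZF1 and IKZF3 of 3 IKZF genes, SOX2 and SOX4 of 15 SOX genes, GATA4 of 6 GATA genes and TBX3 of 11 TBX genes. No tested HOX, PAX, LHX or RUNX gene (0 of 20, 6, 6 and 3) reached that range. KMS11 was highest in 7 of the 20, OPM2 in 6, KMS34 in 4 and KMS18 in 3. KMS34 was lowest in 7, KMS11 and KMS18 in 5 each and OPM2 in 3. The same counts over all tested genes are not given here. By another measure, 4.07% of all tested genes were called higher by at least 1 log2 unit in KMS11, against 2.77% in KMS34, 1.32% in OPM2 and 1.31% in KMS18. Called lower by that much were 3.33% in OPM2, 3.04% in KMS18, 1.21% in KMS34 and 0.864% in KMS11.

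**Figure D2:**
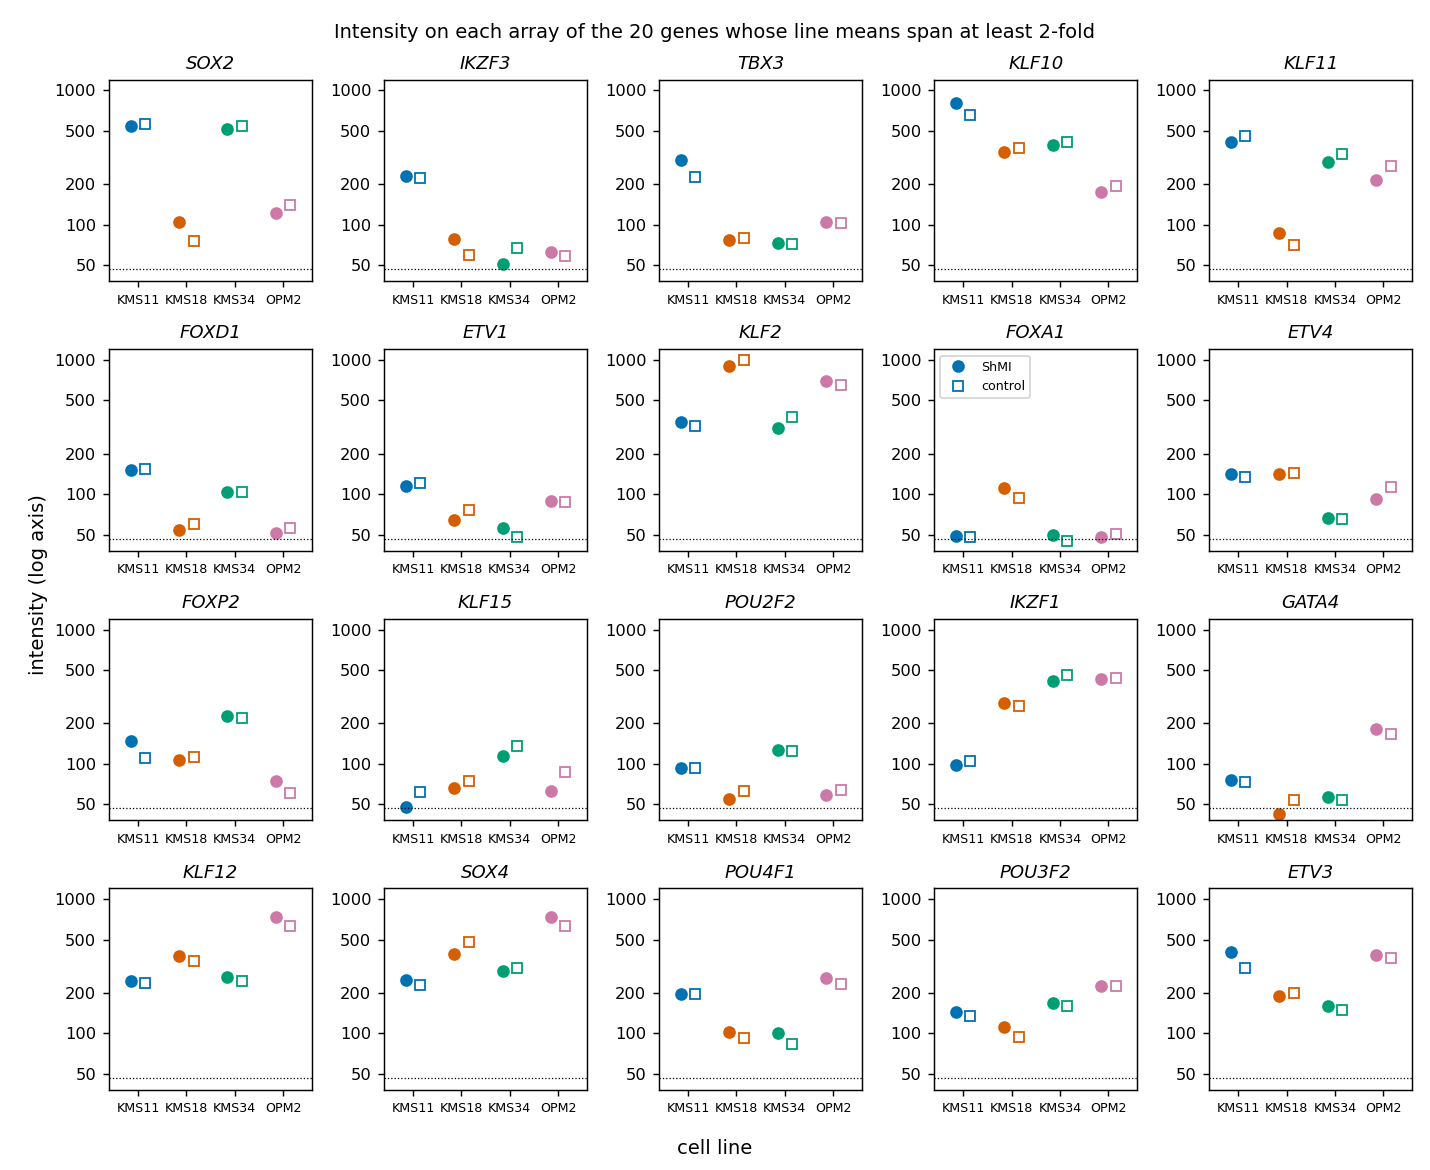
Intensity on each array, on a log axis, of the 20 tested factor genes whose line means span at least 2-fold, with the ShMI array (filled circle) left of the control array (open square) in each line. The dotted line is the intensity below which genes were not tested. Both arrays of a line lie close together, while lines differ by up to 6.20-fold, as for SOX2.

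Among the SOX genes, SOX2, a factor of pluripotent cells and neural progenitors, split the lines in 2 pairs. Its intensity on the ShMI and control arrays was 544 and 563 in KMS11 and 518 and 538 in KMS34, against 122 and 141 in OPM2 and 105 and 75.8 in KMS18. The ranges of the 2 pairs of lines did not overlap. KMS11 and KMS34 did not differ beyond their spread (limma, adjusted p = 0.728), whereas KMS34 was 4.03-fold above OPM2 (adjusted p = 1.41e-07) and OPM2 1.47-fold above KMS18 (adjusted p = 0.00540). Against the mean of the other 3 lines, the difference was 1.59 log2 units (SE 0.110, adjusted p = 1.81e-07) for KMS11 and -1.92 for KMS18.

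SOX4, which acts in early lymphocyte development, had another order. Its intensity was 741 and 630.3 on the ShMI and control arrays of OPM2, against 392 and 478 in KMS18, 290.0 and 306 in KMS34 and 249 and 229.8 in KMS11. OPM2 stood above the other lines by 1.12 log2 units (SE 0.0954, adjusted p = 1.16e-06), and all 3 steps of the order passed the test. The other 13 tested SOX genes spanned at most 1.63-fold between lines, among them SOX8, with 74.9 to 145 over the 8 arrays, and SOX9, the factor of cartilage, with 136 to 175.

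The lymphoid zinc finger genes IKZF1 (Ikaros) and IKZF3 (Aiolos) went in opposite directions in KMS11. Both encode factors that are marked for degradation through cereblon when cells receive lenalidomide. IKZF1 had 97.1 and 106 on the ShMI and control arrays of KMS11, against 281 and 272 in KMS18, 417 and 456 in KMS34 and 428 and 437 in OPM2. IKZF3 had 231 and 222 in KMS11, against 78.2 and 59.2 in KMS18, 50.7 and 66.8 in KMS34 and 62.7 and 57.9 in OPM2. KMS11 was thus the line with the lowest IKZF1 and the highest IKZF3 signal, and its arrays did not overlap those of the other lines for either gene. The difference between KMS11 and the mean of the other lines was -1.88 log2 units (SE 0.0736, adjusted p = 1.45e-09) for IKZF1 and 1.87 log2 units (SE 0.118, adjusted p = 8.73e-08) for IKZF3 (limma).

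For IKZF3 the other 3 lines did not differ beyond their spread in neighbouring steps (adjusted p = 0.399 and 0.789), nor did IKZF1 between KMS34 and OPM2 (adjusted p = 0.921). IKZF4, the third tested member, ranged from 61.1 to 74.0 and did not pass the F test (adjusted p = 0.169). In a list of genes for Ikaros degradation and corepression, 7 of 10 had a row, 7 passed the F test and 3 spanned at least 2-fold, beside 75.7% and 18.8% of all tested genes. Its brightest members were the remodeller gene CHD4 (742 to 1435 over the 8 arrays), the corepressor gene SIN3A (666 to 1041) and the histone deacetylase gene HDAC1, with 905 and 844 in KMS11 against 405 to 497 in the other lines. The cereblon gene CRBN, chosen after its values were seen, had 155 and 131 in OPM2, against 237 and 226 in KMS11, 273 and 269.6 in KMS34 and 281 and 266 in KMS18.

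The POU gene of the B lineage, POU2F2 (OCT2), which binds the octamer of immunoglobulin promoters, was brighter in 2 lines. It had 127 and 125 on the ShMI and control arrays of KMS34 and 92.9 and 93.5 in KMS11, against 58.7 and 63.4 in OPM2 and 54.6 and 62.7 in KMS18. KMS34 exceeded KMS11 1.35-fold (limma, adjusted p = 0.00218), and OPM2 and KMS18 did not differ beyond their spread (adjusted p = 0.665). The row of its coactivator gene POU2AF1 spanned 70.7 to 88.4, with no call between lines (adjusted p = 0.557).

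Of the POU genes with a range of at least 2-fold, POU4F1 and POU3F2 were highest in OPM2. POU4F1 (BRN3A), a factor of sensory neurons, had 260.0 and 232 on the ShMI and control arrays of OPM2 and 197 and 198 in KMS11, against 102 and 92.2 in KMS18 and 101 and 83.0 in KMS34. OPM2 lay above the mean of the other lines by 1.03 log2 units (SE 0.0768, adjusted p = 3.75e-07). POU3F2 (BRN2) had 225 and 226 in OPM2, against 169 and 159 in KMS34, 144 and 134 in KMS11 and 111 and 94.1 in KMS18. Among POU genes of narrower range, POU3F1 was highest in KMS18 and POU6F1 in KMS34. KMS34 and KMS11 did not pass as different for POU3F2 (adjusted p = 0.0512). POU5F1P3, a pseudogene whose signal cannot be told apart from that of POU5F1 and its other copies, had 139 to 268 over the 8 arrays, with KMS18 highest.

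Of the other B lineage factors, PAX5 spanned 59.0 to 91.6 over the 8 arrays and FOXO1, a target of AKT that acts in early B cells, 162 to 319. FOXO1 had 319 and 310.0 on the ShMI and control arrays of OPM2, against 241 and 218 in KMS34, 231 and 209 in KMS18 and 162 and 172 in KMS11, and OPM2 was higher than the mean of the others by 0.63 log2 units (SE 0.0762, adjusted p = 2.49e-05). FOXO4, of the same subgroup, ran the other way, with 119 and 127 in OPM2 against 256 and 235 in KMS11. FOXO3 had 136 and 144 in KMS34, the lowest line of its brightest row, against 222 and 192 in KMS11. In a second row of FOXO3 KMS11 was also highest, but OPM2 was lowest. Line means of that row spanned 1.18-fold, against 1.47-fold in the brightest row. FOXO1, FOXO3 and FOXO4 were chosen for mention after their values were seen. Of 5 measured PAX5 target genes, 4 passed the F test, near the 75.7% of all tested genes. The brightest were the adaptor gene BLNK, with 358 and 312 in OPM2 against 118 and 110.2 in KMS18, LEF1, with 24.5 and 29.0 in KMS34 against 133 and 97.0 in KMS18, and BLK (57.5 to 69.8), which did not pass (adjusted p = 0.441).

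The KLF genes, which bind GC boxes like those marked above, supplied 5 of the 20 wide-ranging genes. Of 16, 14 passed the F test, and the median range was 0.691 log2 units. The same values were 81.2% and 0.543 for all tested genes between the 50th and 75th percentile of brightness and 90.6% and 0.719 above it, so the family, whose median percentile was 67.5, was near genes of like brightness. KLF2, a regulator of lymphocyte quiescence and migration, had 906 and 1005 on the ShMI and control arrays of KMS18 and 692 and 645 in OPM2, against 314 and 375 in KMS34 and 347 and 324 in KMS11. KMS18 stood above the mean of the other lines by 1.17 log2 units (SE 0.0866, adjusted p = 3.75e-07), while KMS34 and KMS11 did not differ beyond their spread (adjusted p = 0.834). The arrays of KMS18 and OPM2 did not overlap those of KMS34 and KMS11.

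KLF10 and KLF11 are repressors induced by TGF-beta, and both were highest in KMS11. KLF10 had 807 and 660.4 on the ShMI and control arrays of KMS11, against 392 and 416 in KMS34, 348 and 374 in KMS18 and 173 and 196 in OPM2. KLF11 had 415 and 459 in KMS11, against 290.3 and 337 in KMS34, 215 and 274 in OPM2 and 86.2 and 70.8 in KMS18. They differed in the lowest line, which was OPM2 for KLF10 and KMS18 for KLF11. OPM2 lay below the others in KLF10, with a difference of -1.36 log2 units (SE 0.0918, adjusted p = 1.42e-07), and KMS18 in KLF11, with -2.04 log2 units (SE 0.105, adjusted p = 1.61e-08), the widest difference of a line from the others among the 142 genes.

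KLF12, a repressor of AP-2 alpha, was highest in OPM2, with 741 and 635 on the ShMI and control arrays, against 379.7 and 345 in KMS18, 264 and 245 in KMS34 and 245 and 235 in KMS11. The difference was 1.29 log2 units (SE 0.0720, adjusted p = 2.74e-08). KLF15, known from glucose and amino acid metabolism, had 115 and 137 in KMS34, against 63.0 and 87.1 in OPM2, 65.7 and 74.1 in KMS18 and 47.5 and 61.8 in KMS11. Only its KMS34 arrays exceeded 100. KLF6, an early response gene, and KLF4, one of the reprogramming factors, spanned 323 to 629 and 106 to 169.8 over the 8 arrays.

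Some factors known from non-lymphoid tissues were higher in single lines. TBX3, a T-box repressor of limb and mammary gland development, had 302 and 227 on the ShMI and control arrays of KMS11, against 105 and 103 in OPM2, 77.3 and 79.0 in KMS18 and 72.8 and 71.5 in KMS34, a difference of 1.64 log2 units (SE 0.0911, adjusted p = 2.85e-08). GATA4, a factor of heart and gut endoderm, had 183 and 167 in OPM2, against 76.0 and 73.7 in KMS11, 56.4 and 53.3 in KMS34 and 42.2 and 53.8 in KMS18, a difference of 1.59 log2 units (SE 0.0940, adjusted p = 4.61e-08). In neither gene did the arrays of the high line overlap those of the others.

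FOXA1, a pioneer factor of endoderm and of hormone-responsive epithelium, showed the same form in KMS18. It had 111 and 93.3 there, against 47.8 and 50.8 in OPM2, 49.1 and 48.3 in KMS11 and 49.7 and 44.8 in KMS34. Its values in those 3 lines were close to the intensity below which genes were not tested, and neighbours among them did not differ beyond their spread (adjusted p = 0.889 for OPM2 and KMS11). The KMS18 difference was 1.07 log2 units (SE 0.0813, adjusted p = 4.51e-07).

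FOXP2, a forkhead gene best known from speech and brain development, had 228 and 219 on the ShMI and control arrays of KMS34, against 148 and 111 in KMS11, 107 and 112 in KMS18 and 74.6 and 60.9 in OPM2. KMS34 was above the mean of the others by 1.19 log2 units (SE 0.0934, adjusted p = 7.22e-07) and OPM2 below it, with -1.12. FOXD1, a gene of the kidney stroma, had 152 and 153 in KMS11 and 105 and 104 in KMS34, against 54.3 and 59.8 in KMS18 and 51.2 and 56.1 in OPM2. A second, dimmer row of FOXD1 did not follow this pattern: its line means spanned 1.30-fold with OPM2 highest, and with the mean of both rows the KMS11 difference was 0.49 log2 units, against 1.16 with the brightest row. FOXN2, the brightest FOX row, spanned 428 to 680.3.

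Of the ETS family, ETV1, ETV4 and ETV5 form the PEA3 group, whose genes are often induced by FGF receptor and MAP kinase signalling. All 3 were lowest in KMS34. ETV4 had 66.2 and 65.2 on the ShMI and control arrays of KMS34, against 92.1 and 114 in OPM2, 141 and 134 in KMS11 and 142 and 143 in KMS18. ETV5 had 47.1 and 49.4 in KMS34, against 67.5 and 74.5 in KMS18, 71.1 and 85.3 in OPM2 and 77.2 and 89.0 in KMS11. ETV1 had 55.7 and 47.6 in KMS34, against 63.9 and 75.9 in KMS18, 89.1 and 86.9 in OPM2 and 115 and 122 in KMS11.

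KMS34 lay below the mean of the other lines by a log2 difference of -0.94 log2 units (SE 0.0846, adjusted p = 2.29e-06) for ETV4, -0.68 for ETV5 (adjusted p = 1.13e-05) and -0.80 for ETV1 (adjusted p = 1.52e-05), and its arrays overlapped none of the others in these 3 genes. The fibroblast growth factor receptor gene FGFR3, chosen after these values were seen, had 889 and 1061 in KMS34, against 1326 and 1403 in KMS18, 1358 and 1457 in OPM2 and 2256 and 2410.3 in KMS11. KMS34 was thus lowest in FGFR3 as well, and the part of FGFR3 in the ETV values was not tested. ETV3, a repressor outside that group, was also lowest in KMS34, with 161 and 149.6, against 189.8 and 201 in KMS18, 401 and 308 in KMS11 and 381 and 362 in OPM2. ETV6, a haematopoietic repressor, was highest there, with 472 and 504, against 312 and 279.9 in OPM2, its lowest line.

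The RUNX genes, which bind DNA with CBFB and act in blood, bone and T cells, all passed the F test but spanned less than 2-fold. RUNX2, the bone factor, had 270.1 and 215 on the ShMI and control arrays of OPM2, against 150.0 and 147 in KMS11, 139.5 and 148 in KMS18 and 132 and 117 in KMS34. RUNX3 was highest in KMS11, with 363 and 296, and lowest in OPM2, with 180.3 and 160.4. RUNX1 ranged from 59.0 to 85.4. Of 7 partner genes of RUNX and GATA factors 4 had a row, and 1 of them, LDB1, a bridging protein of LMO and GATA complexes, spanned at least 2-fold, with 1231 and 1269.5 in KMS34 against 423 and 518 in KMS18. The next brightest were LYL1 (117 to 168) and LMO2 (65.6 to 99.4).

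Of the 27 HOX genes, 20 were tested and 9 passed the F test, with a median range of 0.301 log2 units. These rows were mostly dim, and of all tested genes between the 25th and 50th percentile 55.3% passed, with a median range of 0.338, so the HOX values were near those of dim rows at large. HOXB9 had the widest range, with 165 and 213 on the ShMI and control arrays of KMS11, against 102 and 119 in OPM2, 106 and 100.2 in KMS18 and 97.1 and 91.7 in KMS34, a difference of 0.87 log2 units (SE 0.0952, adjusted p = 9.60e-06). The 2 arrays of KMS11 differed by more than any 2 arrays of another line for this gene, but both lay above all the others. HOXB7, of the same cluster, spanned 78.8 to 118, also with KMS11 highest. KMS11 and KMS18 did not pass as different for HOXB7, and HOXB8 was not called higher in KMS11. By cluster, line means spanned at most 1.99-fold in 10 HOXB genes, 1.53-fold in 9 HOXD genes, 1.44-fold in 7 HOXC genes and 1.14-fold in the single HOXA gene with a row, HOXA2. HOXD4, the brightest HOX row, spanned 124 to 168.

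The PAX and LHX genes also stayed within 2-fold. PAX8, a thyroid and kidney factor, had the widest range of its family, with 85.5 and 83.5 on the ShMI and control arrays of OPM2 and 74.96 and 75.89 in KMS18, against 50.2 and 61.8 in KMS11 and 51.4 and 53.1 in KMS34. LHX8, a forebrain factor, had 115 and 114 in KMS11 and 116 and 96.8 in KMS34, against 86.1 and 93.4 in OPM2 and 63.6 and 67.0 in KMS18. PAX2 ranged from 74.1 to 93.8 and LHX3, a pituitary factor, from 204 to 315. GATA1, the erythroid factor and brightest GATA row, ranged from 117 to 144 (F test, adjusted p = 0.336), and TBX2 from 90.6 to 138.

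Counted by line, KMS11 was higher than the mean of the other lines in 27 of the 142 genes and lower in 44, against 31% and 24.5% of all tested genes. KMS18 was higher in 32 and lower in 22, against 19.4% and 28.9% of all genes. KMS34 was higher in 17 and lower in 44, against 24.4% and 20.9%. OPM2 was higher in 38 and lower in 19, against 22.6% and 26.1%.

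In percent of the 142 genes, the higher and lower calls were 19% and 31% for KMS11, 22.5% and 15.5% for KMS18, 12% and 31% for KMS34 and 26.8% and 13.4% for OPM2. In 2 lines these splits moved with median centring but little with quantile normalization. With each array centred on its median the split was 36 higher and 26 lower for KMS11, and 16 higher and 33 lower for KMS18. With quantile normalization it was 26 and 40 for KMS11, and 31 and 23 for KMS18. Shares of all tested genes under these scalings are not given here. At a size of at least 1 log2 unit the calls numbered 6 higher and 1 lower in KMS11, 2 and 2 in KMS18, 2 and 0 in KMS34 and 4 and 3 in OPM2, against 4.07% and 0.864%, 1.31% and 3.04%, 2.77% and 1.21%, and 1.32% and 3.33% of all tested genes.

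Small differences between lines ran the same way in many dim rows, factor genes and others alike. Of the 67 tested factor genes between the 25th and 50th percentile of brightness, 36 (53.7%) had both KMS18 and OPM2 above both KMS11 and KMS34, as did 44.5% of all tested genes in that range. PAX5, with 88.3 and 91.6 on the ShMI and control arrays of KMS18 and 82.7 and 75.3 in OPM2, against 59.0 and 60.7 in KMS11 and 66.8 and 70.7 in KMS34, showed this form and was picked as an example after its values were seen. The median log2 deviation of a line from the mean of 4 lines in the dim factor genes was 0.049 for KMS18, 0.064 for OPM2, -0.042 for KMS34 and -0.071 for KMS11. After quantile normalization, tried after the pattern was seen, 16 of the 67 (23.9%) showed this order, beside 29.9% of all genes in that range.

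Between the 50th and 75th percentile the order was seen in 24 of 52 factor genes (46.2%), beside 24.4% of all genes there, and quantile normalization left it at 27 of 52 (51.9%) beside 27.4%. Among the 23 factor genes above the 75th percentile it was seen in 5 (21.7%), beside 9.32% of all genes there. After quantile normalization these were 6 (26.1%) beside 19.1%. These shares were not tested against each other. The order of lines in dim factor genes thus moved with the scaling of the arrays, by differences far smaller than the 2-fold ranges given above.

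**Figure D3:**
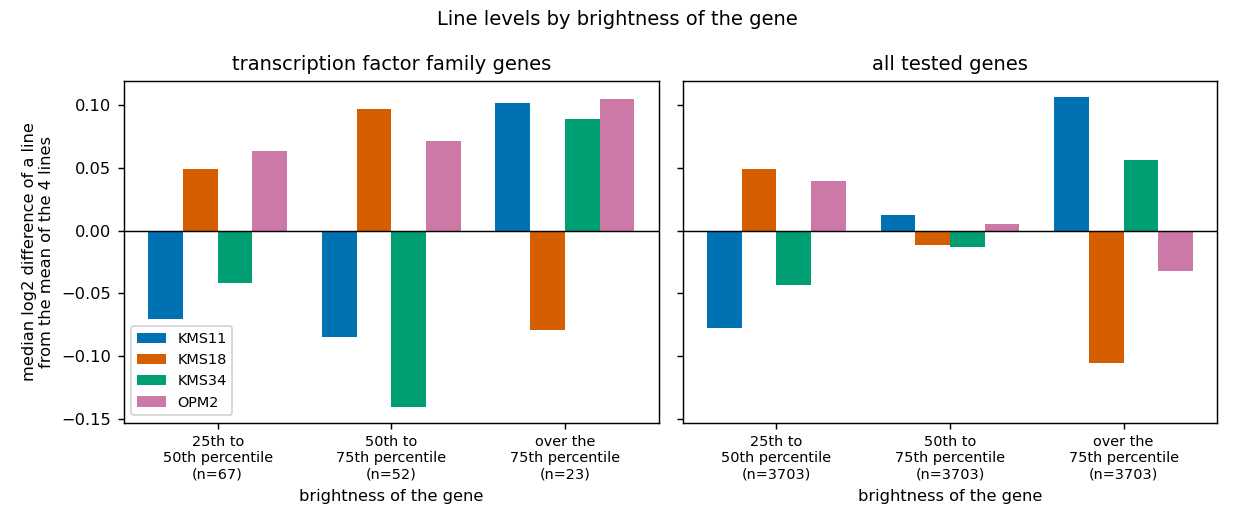
Median log2 difference of each line from the mean of the 4 lines, for the factor genes (left) and all tested genes (right), in 3 ranges of brightness. Among dim genes both panels show KMS18 and OPM2 above 0 and KMS11 and KMS34 below 0, by less than 0.08. In the middle range the bars of the factor genes reach -0.14 in KMS34, while those of all genes stay near 0.

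The second comparison asked what the MMSET I knockdown changed in these factors across the 4 lines. None of the 142 tested genes passed limma's test over all genes (0 of 142, smallest adjusted p = 0.203), where 0.117% of all tested genes passed, 0.018% higher and 0.099% lower in ShMI. At an unadjusted p under 0.05 there were 12 of the 142, 5 higher and 7 lower, which is 8.45% against 8.41% of all tested genes (4.26% higher and 4.15% lower). The median log2 difference was -0.0083 for the factor genes and -0.0033 for all tested genes, and the median size 0.0550 and 0.0571. Mean differences reached from -0.32 to 0.23, with 64 genes above 0 and 78 below. Within each line, 0 of the 142 genes differed by 1.5-fold or more in either direction. Of all tested genes, 0.27% were higher and 0.243% lower by that much in KMS11, 0.045% and 0.081% in KMS18, 0.117% and 0.135% in KMS34 and 0.09% and 0.099% in OPM2.

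The lowest mean difference belonged to KLF15. Its intensities in KMS11, KMS18, KMS34 and OPM2 were 47.5, 65.7, 115 and 63.0 on ShMI arrays, against 61.8, 74.1, 137 and 87.1 on control arrays. Every line had the lower value on its ShMI array, although the ranges of the 2 groups overlapped. The mean log2 difference was -0.32 (SE 0.0684, adjusted p = 0.203), and the values by line were -0.38 (KMS11), -0.17 (KMS18), -0.25 (KMS34) and -0.47 (OPM2). SOX18, an endothelial and lymphatic factor, was lower on every ShMI array than on any control array. It had 54.0, 63.1, 59.8 and 58.5 on ShMI arrays, against 74.5, 74.3, 69.3 and 66.3 on control arrays of the same lines. The difference was -0.27 (SE 0.0681, adjusted p = 0.257), and it did not pass over all genes.

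GATA3, the factor of T helper cells, had the highest mean difference. Its intensities were 108, 113, 88.6 and 168 on the ShMI arrays of KMS11, KMS18, KMS34 and OPM2, against 104, 84.0, 82.5 and 134 on the control arrays. The difference was 0.23 (SE 0.0742, adjusted p = 0.447), above 0 in 4 of 4 lines but 0.056 in KMS11 and 0.42 in KMS18. KLF12, described above as highest in OPM2, had 0.13 (SE 0.0624, adjusted p = 0.605), between 0.06 in KMS11 and 0.22 in OPM2. None of these passed over all genes.

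The sign was the same in 4 of 4 lines in 18 of the 142 genes (12.7%), against 17% of all tested genes. In 8 the ShMI array was higher in every line, against 8.29% of all tested genes. Besides GATA3 and KLF12 these were KLF17, an early embryo factor, at a mean log2 difference of 0.16, POU4F3, a hair cell factor of the inner ear, at 0.16, FOXI1 at 0.11, FOXR1 at 0.089, FOXJ3 at 0.039 and FOXK2 at 0.034. In 10 it was lower in every line, against 8.76%. Besides KLF15 and SOX18 these were ETV5 at -0.17, PAX9 at -0.15, HOXC13, a hair follicle factor, at -0.15, HOXB7 at -0.11, TBX4, a hindlimb factor, at -0.099, SOX21 at -0.096, POU2F3, a tuft cell factor, at -0.09 and HOXC4 at -0.047. Without KMS11 the mean difference was -0.058 for TBX4, -0.059 for SOX21 and -0.048 for POU2F3, without KMS18 it was -0.017 for HOXC4, and without KMS34 0.068 for FOXI1 and 0.025 for FOXJ3. Adjusted p-values of these 18 lay between 0.203 and 0.912.

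**Figure D4:**
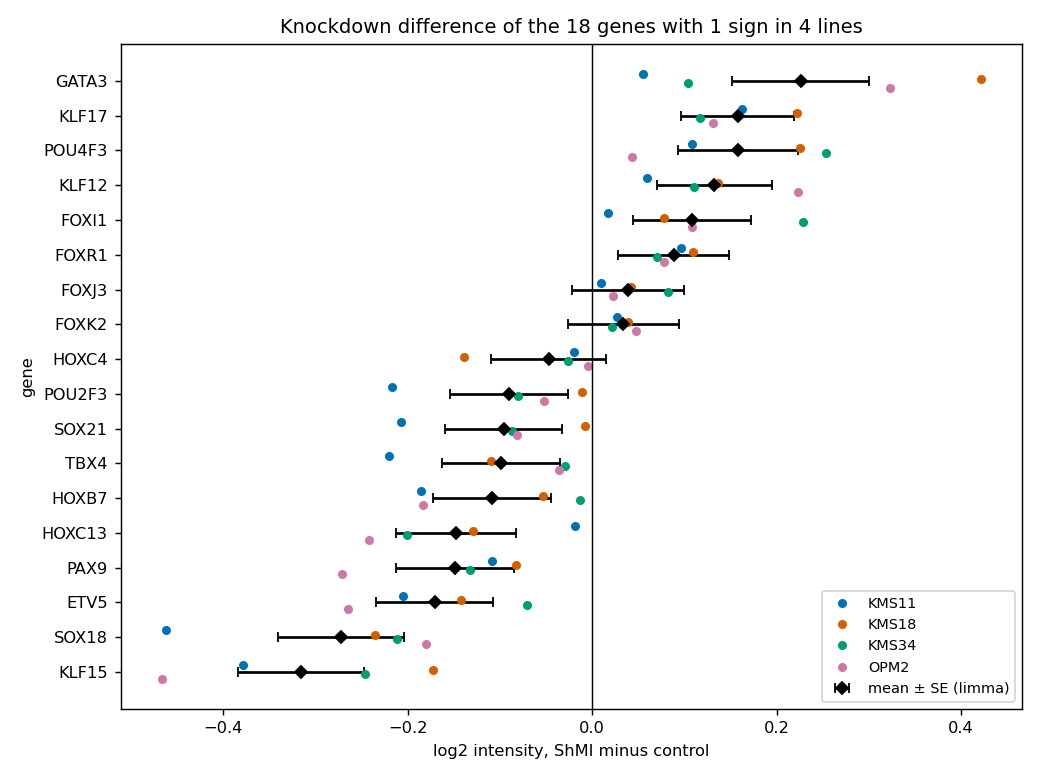
Log2 intensity difference between the ShMI and the control array of each line (coloured points) and the limma mean with its standard error (diamonds) for the 18 tested factor genes with the same sign in 4 lines. The means reach from -0.32 for KLF15 to 0.23 for GATA3, and none passed the test over all genes.

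By family, counts of mean differences above and below 0 were 17 and 19 for FOX, 9 and 6 for SOX, 9 and 7 for KLF, 6 and 7 for POU, 6 and 5 for TBX, 4 and 2 for GATA, 3 and 3 for LHX, 2 and 5 for ETV, 2 and 1 for RUNX and 2 and 1 for IKZF. HOX genes had 4 above and 16 below 0, with a median log2 difference of -0.018, and PAX genes 0 above and 6 below, with a median of -0.071. The median of all tested genes was -0.0033. Shares of all tested genes above and below 0 are not given here, so these splits are a description only. With arrays centred on their medians the counts of all 12 families were the same. Centring moves every knockdown difference by 1 common amount, here a small one, so these counts could hardly change. The median of the 142 genes went from -0.0083 to -0.0085. With quantile normalization the split turned to 20 above and 16 below 0 for FOX, and was 8 and 8 for KLF and 3 and 4 for ETV, while the other 9 families, HOX and PAX among them, had the same counts. Each HOX and PAX gene, like the rest, missed the threshold, and counts of related genes are no replicates.

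Within single lines, where 1 array stands on each side and no test is possible, the widest differences between ShMI and control were small. In KMS11 they were 0.42 for FOXP2, 0.41 for TBX3 and 0.38 for ETV3 upwards, and -0.46 for SOX18, -0.46 for SOX8 and -0.38 for KLF15 downwards, on the log2 scale. In KMS18 they were 0.47 for SOX2, 0.42 for GATA3 and 0.40 for IKZF3, and -0.35 for GATA4, -0.29 for ETV6 and -0.29 for SOX4. In KMS34 HOXC11 had 0.48, FOXA3 0.31 and TBX2 0.29, and IKZF3 -0.40, TBX6 -0.29 and GATA2 -0.29. In OPM2 TBX20 had 0.41, RUNX2 0.33 and GATA3 0.32, and KLF14 -0.49, KLF15 -0.47 and KLF11 -0.35. IKZF3 thus had a difference above 0 in KMS18 and below 0 in KMS34.

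Genes that act with these factors were counted from 10 lists, and 0 of their tested genes passed limma's test for the knockdown in either direction. Unadjusted p-values under 0.05 were found for 1 of 7 HOX partner genes, 1 of 10 HOX chromatin regulators, 1 of 6 genes of the switch to plasma cells, 1 of 5 PAX5 targets and 2 of 9 FOXO targets and regulators. They were found for 0 in the lists of RUNX and GATA partners (4 tested), E proteins (3), Ikaros degradation and corepression (7), TLE corepressors (1) and other lineage factors (12). Over the 10 lists, with LEF1 (in 2 of them) counted once, these were 6 of 63 genes (9.52%), near the 8.41% of all tested genes. Of the HOX partners the brightest were PBX2, at a log2 difference of 0.032, PKNOX1 at -0.029 and MEIS1 at -0.098, and of the chromatin regulators the Polycomb genes SUZ12, at -0.15, and EZH2, at -0.066, and the menin gene MEN1, at -0.056. In the switch list IRF4 had -0.039, XBP1 -0.063 and SPIB -0.053. List medians lay between -0.058 (switch to plasma cells) and 0.068 (E proteins), beside -0.0033 for all tested genes.

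Between lines several of these partner genes differed by more than 2-fold. Ranges of at least 2-fold numbered 5 in the FOXO list (9 tested), 5 among other lineage factors (12) and 3 in the Ikaros list (7). There were 2 in the switch list (6), 2 among PAX5 targets (5) and 1 each for RUNX and GATA partners (4), E proteins (3) and TLE (1). Both HOX lists (7 and 10) had 0. Of all tested genes 18.8% had such a range, a share not matched for brightness. The E protein gene TCF4, whose product is held off DNA by ID proteins, had 740.2 and 568 on the ShMI and control arrays of KMS34 and 676 and 579 in KMS11, against 243 and 252 in OPM2 and 176 and 198 in KMS18, with the same lines above the others as for SOX2 and POU2F2. TCF3 ran from 652 to 1208 with OPM2 highest, and TCF12 from 156 to 282. The corepressor gene TLE5, the 1 TLE gene of 5 with a row, had 119 and 88.7 in KMS34, against 716 and 859 in KMS11, 949 and 993 in KMS18 and 1303 and 1233 in OPM2, a range of 12.3-fold between line means (F test, adjusted p = 8.96e-10). Of the FOXO list, TXNIP, an inhibitor of thioredoxin and glucose uptake, had 1229 and 1130.2 in KMS11 against 225 and 196 in KMS18, SESN1 ranged from 162 to 206 and AKT1 from 118 to 254. Among other lineage factors, FLI1 spanned 305 to 458, BCL11A had 374 and 371 in KMS34 against 93.4 and 107 in KMS18, and MYB had 381 and 481 in KMS18 against 90.0 and 92.3 in KMS34.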

How the data were processed

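Per the labels, biotin-labelled cDNA from 8 cultures was hybridised to Affymetrix Human Gene 2.0 ST arrays, and per the series text the authors analysed them in GeneSpring. The deposited values are linear intensities, 1 per array and transcript cluster, a scale judged from their range. How background, normalization and summarization were handled is not given in the sources used here. Detection calls were not used, so nothing is said on whether a gene was above background. The number of arrays limits the precision.

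Of 44629 rows, 15835 had 1 platform symbol, 0 had several and 28794 none. Each of the 14812 genes was represented by its brightest row (5 of the 167 factor genes had 2 rows), log2 was taken, and genes with a mean under the 25th percentile were left out, which left 11109. Limma 3.58.1 in R 4.3.3 (lmFit, eBayes) was fitted to all of these with cell line and condition as terms, and p-values were Benjamini-Hochberg adjusted over 11109 genes. The ShMI and control arrays of a line are paired by the line in the labels. Their log2 values correlated at 0.991 to 0.993, against 0.880 to 0.915 for arrays of unlike lines. Their deviations from the group means correlated at 0.925 to 0.932, against -0.135 at most between lines. Deviations from a group mean sum to 0 over the lines, which pushes the values between lines below 0 by construction. P-values of the knockdown measure the spread of its differences over these 4 lines. Those between lines use the same residual and do not measure the spread between cultures of a line. The fits were tested on simulated data.

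Named genes were those past the threshold (there were 0 for the knockdown), genes with 1 sign in 4 lines by p, up to 6 genes above and 4 below the other lines by at least 1 log2 unit, the brightest and widest gene of each family, the 3 widest differences per direction within a line and the 3 brightest genes of each list, with the other genes of at least 2-fold range and those said to be chosen later. SOX9, KLF4, KLF6, PAX5, RUNX1, IKZF4 and POU2AF1 were also named with their values in view. Genes, lists and tests were chosen with earlier results of these data known. Alternatives were other scalings, filters, row summaries and blocks, trend and robust eBayes, other thresholds and leaving out each line. Promoter windows come from RefSeq (GRCh38.p14). Marker lists of plasma, mature B, T and NK, myeloid, erythroid and stromal cells (7, 4, 6, 3, 1 and 1 tested genes) gave 0 knockdown calls.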

Additional observations from a re-analysis of the deposited data

Results flagged for a closer look

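In 6 of 104 sets of 4 values (52 knockdown differences and 52 sets of line means of named genes), 1 line lay far from the other 3 by Dixon's criterion. Chance marks about 1 in 20 sets that were not selected, but FOXA1, IKZF3, TBX3 and SOX8 were named because 1 line stood apart, so that share cannot be set against this count and the values are a description. On the log2 scale the line mean of FOXA1 was 6.669 in KMS18, against 5.559 to 5.623 in the others. That of IKZF3 was 7.823 in KMS11, against 5.862 to 6.088. The line mean of POU4F3 was 6.606 in OPM2, against 6.287 to 6.321.

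Among the differences between ShMI and control, TBX3 had 0.4115 in KMS11, against -0.03299 to 0.02618 in the other lines. SOX8 had -0.4596 in KMS11, against 0.03196 to 0.1174. HOXC4 had -0.1389 in KMS18, against -0.02608 to -0.004031. Each rests on 1 array per side.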

How the results depend on the processing

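The count of factor genes called for the knockdown was 0 under every alternative run, among them no replicate block (0 calls), a random block for the line (0), an adjusted p under 0.10 (0) and leaving out each line (0). The count for the F test between lines was 97, and 79 to 86 without 1 line, 71 at an adjusted p under 0.01, 69 of 75 with a filter at the 50th percentile, 88 with quantile normalization and 98 of 167 with no filter. Centring arrays on their medians gave 26 genes lower in KMS11 and 16 higher in KMS18, and the 50th percentile filter, which tests fewer genes, 28 lower in KMS11. Centring adds the same amount to every gene of an array. In log2 units this was 0.052 and 0.068 for the control and ShMI arrays of KMS11 and -0.051 and -0.047 for those of KMS18. Why the array medians differed was not tested. With a size of at least 1.5-fold added, fewer genes can be called by construction, and higher and lower calls were 15 and 6 in KMS11, 2 and 11 in KMS18, 6 and 10 in KMS34 and 10 and 6 in OPM2. Leaving out 1 other line gave 25 to 29 higher and 30 to 50 lower calls in KMS11, 21 to 44 and 21 to 29 in KMS18, 14 to 22 and 31 to 52 in KMS34 and 30 to 47 and 14 to 22 in OPM2. Shares of all tested genes under these alternatives are not given here, so a change in these counts may not be particular to the factor genes. The 20 line differences of named genes kept their direction and their call in 177 of 177 refits. Among these 20, leaving out a line moved the difference by over 1.5 times for SOX2 in KMS34 (0.97 to 2.29 log2 units) and OPM2 (-2.05 to -0.73) and for KLF11 in KMS11 (0.66 without KMS18). The number of dim factor genes with KMS18 and OPM2 above the other lines was 36, and 16 with quantile normalization, chosen after seeing the data. Depth does not apply to arrays. Dim rows and 1 culture pair per line limit what small differences can show.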
